A study of Arabidopsis thaliana with 8 samples.

Results

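Ribosome footprints of *Arabidopsis thaliana* inflorescences were compared between *hot3-2 dcl2 dcl4* and *dcl2 dcl4* plants, which asks what the *hot3-2* mutation does to the position and number of ribosomes on mRNAs when the Dicer-like proteins DCL2 and DCL4 are disrupted. The 2 libraries of each genotype were taken from the genotype labels, so 4 of the 8 libraries of the study enter the comparison. The other 4, from wild type (WT) and *hot3-2*, served only to estimate the spread between libraries and to set the *hot3-2* effect without *dcl2 dcl4* beside a value. All plants were in the Col-0 background and were grown in 16 h of light and 8 h of dark. Both genotypes compared carry the T-DNA insertion alleles *dcl2-1* and *dcl4-2*. The triple mutant, made by genetic crosses, also carries *hot3-2*, 1 T-DNA insertion allele of *HOT3*. The age of the plants and the number pooled for a library are not given in the labels. No label says that the replicates came from separate plants. The paper calls its Ribo-seq replicates independent but does not say in what way. The p-values therefore measure the spread between these libraries, which may be technical.

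*HOT3* encodes eIF5B1, a form of the translation factor eIF5B. eIF5B is a GTPase that binds the small ribosomal subunit once it has found the start codon, brings in the large subunit and leaves after it has hydrolysed GTP, and only then can the ribosome move to the next codon. DCL2 and DCL4 dice double-stranded RNA, and the small interfering RNAs they release guide Argonaute proteins to matching transcripts. In ribosome profiling (Ribo-seq) the mRNA that lies outside ribosomes is digested, and each protected fragment, or footprint, places a P site, the pocket of the ribosome that holds the tRNA of the start codon at initiation and of the growing chain afterwards. A footprint count does not separate the amount of an mRNA from how often it is translated.

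The *dcl2 dcl4* libraries held 2807433 and 2923825 footprints and the *hot3-2 dcl2 dcl4* libraries held 1972841 and 2013952. P sites on nuclear coding sequences numbered 2067581 and 2164188 against 1197157 and 1278882, so counting error was larger in the triple mutant. Positions were read only from 28 nt footprints, which had the same P-site offset of 12 nt in every library and made up 38.5% to 42.7% of the nuclear footprints. Of the coding-sequence P sites of 28 nt footprints, 86.7% to 87.7% were in frame. A reading frame annotated within ribosomal DNA took 14.3% and 14.4% of the footprints in *dcl2 dcl4* against 25.6% and 23.1% in *hot3-2 dcl2 dcl4*, and it was kept out of the tests. Floral organ identity genes were read in all 4 libraries, with 155 to 227 CPM in AP3 and 250 to 379 CPM in PI, the regulators of petal and stamen identity, where CPM is coding-sequence P sites per 1000000 after scaling of the libraries. SEP1, SEP2, SEP3 and FUL were also present. AG had no P site in any of the 4 libraries, and AP1 was not analysed here. The labels call the cells somatic, yet 18 genes typical of mature pollen together reached 615 to 754 CPM.

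The mutated gene was read first. *HOT3* (AT1G76810, chromosome 1, 28830902 to 28836748 in TAIR10.1) had 306 and 339 P sites in *dcl2 dcl4* against 50 and 39 in *hot3-2 dcl2 dcl4*. After scaling to library size the log2 fold change was -2.15 (SE 0.25, limma voom adjusted p = 2.87e-10). The groups did not overlap, which also held for 6655 of all 13303 genes tested (50.03%). The footprints that remained lay in both parts of the coding sequence. Its 5′ part, up to the middle, held 200 and 207 P sites in *dcl2 dcl4* against 33 and 20 in *hot3-2 dcl2 dcl4*, and its 3′ part held 106 and 132 against 17 and 19. A further 20.6% of the 28 nt stretches of *HOT3* also occur in another transcript, so some of these footprints may belong to a related gene.

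A second gene of the family rose in the same plants. AT1G21160 (chromosome 1, 7407931 to 7413295), annotated as a translation initiation factor of the family that holds *HOT3*, had 17 and 13 P sites in *dcl2 dcl4* against 158 and 140 in *hot3-2 dcl2 dcl4*. Both triple mutant libraries lay far above both controls, and the log2 fold change was 4.00 (SE 0.41, adjusted p = 1.62e-12). The added P sites were spread along the gene. Its most frequent footprint made up 3.36% of them in the triple mutant, and the log2 fold change was 4.14 when the first 15 and the last 5 codons were left out. The summed level of the 3 eIF5B genes measured, 161 and 169 CPM in *dcl2 dcl4*, was 172 and 139 in *hot3-2 dcl2 dcl4*. The third, AT1G76720, had 2 and 6 P sites against 0 and 2, too few for a test. *DCL2* had 0 and 0 against 1 and 0 P sites, and *DCL4* had 2 and 3 against 1 and 4, so both were at or near the limit of 3 counts in genotypes that share their insertions.

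At the level of whole libraries, ribosomes of the triple mutant were displaced towards the start codon. The start codon share, which is the percentage of coding-sequence P sites of 28 nt footprints that lie on the 3 nt of the ATG, was 0.512% (Wilson 95% interval 0.497% to 0.527%) and 0.522% (0.508% to 0.537%) in *dcl2 dcl4*. In *hot3-2 dcl2 dcl4* it was 2.58% (2.53% to 2.62%) and 2.60% (2.56% to 2.65%). The means were 0.517% ± 0.00732 (SD, n = 2) and 2.59% ± 0.0191 (SD, n = 2), a ratio of 5.01 ± 0.0654 (SD over the 4 pairs of libraries). The intervals cover counting error only and leave out the spread between libraries. The reads carried no molecular identifiers, so copies of 1 fragment may be counted as separate footprints. An exact permutation test of 2 with 2 libraries, two-sided, cannot give a p below 0.333, so library shares are given without a test.

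The excess was largest on the ATG and smaller on both sides, though it persisted upstream. The 3 nt just before the ATG held 0.0405% of the P sites in *dcl2 dcl4* and 0.180% in *hot3-2 dcl2 dcl4*, both relative to coding-sequence P sites, a ratio of 4.46 ± 0.250. In the 27 nt upstream of these the ratio was 1.93 ± 0.0649. Codon 2 had a ratio of 1.39 ± 0.0454, with shares of 0.202% and 0.279%, and codons 2 to 10 together a ratio of 1.16 ± 0.0136. From codon 11 to codon 50 the share was 12.7% in *dcl2 dcl4*, with a ratio of 1.02 ± 0.0234 whose side of 1 depended on 1 library, since it was 0.998 without replicate 1 of *hot3-2 dcl2 dcl4*. The body of the coding sequence from codon 51 held 84.5% in *dcl2 dcl4* and 81.8% in *hot3-2 dcl2 dcl4*. Every share named here except that of codons 11 to 50 separated the groups by more than the spread between replicates.

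Away from the start codon the differences were smaller. The 5′ UTR held 1.38% ± 0.0485 of all P sites in *dcl2 dcl4* and 2.59% ± 0.0604 in *hot3-2 dcl2 dcl4* (SD, n = 2), a ratio of 1.87 ± 0.0643. The last 2 codons had a ratio of 1.15 ± 0.0375, which came mostly from P sites that were 1 nt out of frame. At the last sense codon the ratio was 1.06 ± 0.0216 in frame and 1.20 ± 0.0714 in that shifted register. P sites in the 3′ UTR were 0.121% in *dcl2 dcl4* and 0.114% in *hot3-2 dcl2 dcl4*, a ratio of 0.945 ± 0.0504, a difference about as large as the spread between replicates. The profile around the ATG and the stop codon shows both ends for each library.

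**Figure D1:**
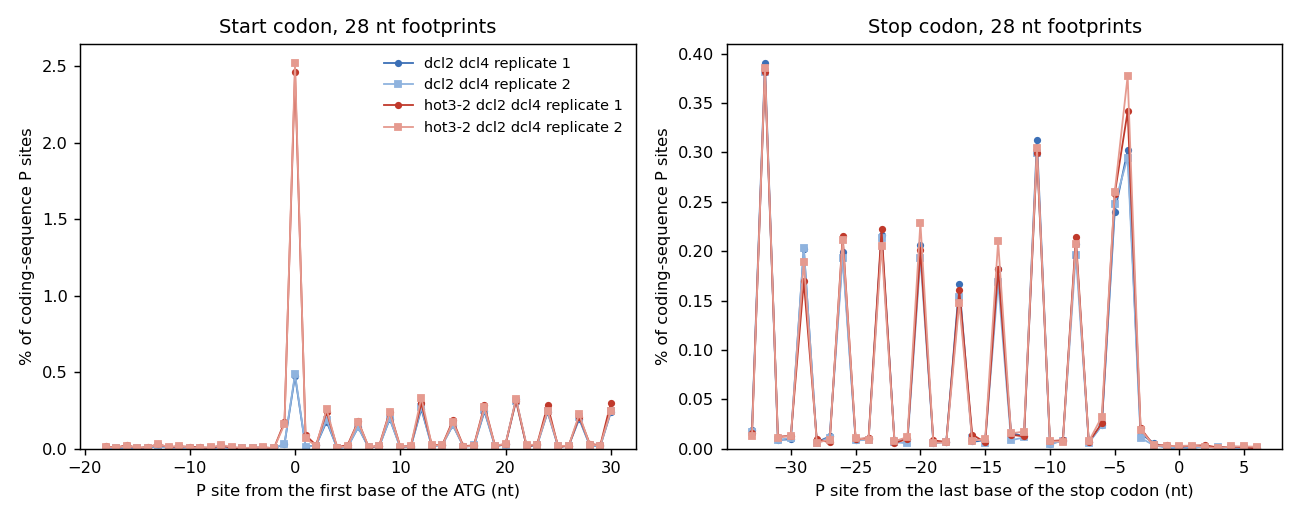
P sites of 28 nt footprints around the start codon (left, distance in nt from the first base of the ATG) and the stop codon (right, distance in nt from its last base), as a percentage of coding-sequence P sites, with 1 line per library. Both *hot3-2 dcl2 dcl4* libraries have a peak on the ATG, where the start codon share was 2.58% and 2.60%, above both *dcl2 dcl4* libraries at 0.512% and 0.522%, whereas near the stop codon the lines run close together.

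The mRNA around the ATG is shown for 6 genes to which the results below return. The first 3 are among the genes with the largest rise at the start codon by odds ratio, LHCB5 had the smallest p, and LP1 and LTP2 had the same 28 nt. Each window runs from 12 nt before the ATG to 13 nt after it in the sense direction, read from the transcripts of TAIR10.1, and the capitals mark the ATG.
AT1G32580: cactgatctccaATGgcgaaaaccctag
AGP12: aaaagaggagaaATGgagtcaatgaaga
PRK: aaacaaacaacaATGgctgtctcaacta
LHCB5: tggactaaaagaATGgcgtctttgggtg
LP1: taagagatcaatATGgctggagtgatga
LTP2: taagagatcaatATGgctggagtgatga
All lie on the + strand, at chr1:11784096-11784123 for AT1G32580, chr3:4409075-4409102 for AGP12, chr1:11532656-11532683 for PRK, chr4:6408188-6408215 for LHCB5, chr2:16130406-16130433 for LP1 and chr2:16128469-16128496 for LTP2. In each of them a G follows the ATG, and the third base before the ATG is a purine in all but AT1G32580. Because a 28 nt footprint on the ATG covers just this window, such footprints of LP1 and LTP2 cannot be told apart.

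By gene, the start codon share was tested in 3197 genes that averaged 50 or more coding-sequence P sites of 28 nt per library. It was higher in *hot3-2 dcl2 dcl4* in 170 genes, 5.32% of those tested, at an adjusted p under 0.05 by a quasi-binomial model whose dispersions were moderated with limma. It was lower in 0 genes (0.00%), and at an unadjusted p under 0.05 there were 351 genes higher and 1 lower. In 169 of the 170 genes the groups did not overlap. Among all 3197 tested, 512 were higher and 10 lower without overlap. The genes were called from these same libraries, so the absence of overlap adds no support. Together the 170 genes had 2.19% and 2.32% of their P sites on the ATG in *dcl2 dcl4* against 13.7% and 13.8% in *hot3-2 dcl2 dcl4*. The displacement was not confined to them, because the 3027 genes tested that did not pass had 0.225% and 0.218% against 0.808% and 0.812%. A gene that did not pass may still differ.

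The largest rise by odds was in AT1G32580 (chromosome 1, 11783543 to 11785704), annotated as plastid developmental protein DAG, among genes with at least 20 start codon P sites in the triple mutant and no overlap. Its share was 0% and 7.02% in *dcl2 dcl4* against 64.6% and 67.2% in *hot3-2 dcl2 dcl4*, so most of its 28 nt P sites in the mutant sat on 1 codon (log2 odds ratio 5.23, SE 1.31, quasi-binomial adjusted p = 3.25e-06). A similar level was reached by AT5G23540, a Mov34/MPN/PAD-1 family protein, with 2.38% and 9.38% against 48.4% and 75.0%. AGP12, an arabinogalactan protein of the cell surface, had 2.78% and 1.33% against 35.3% and 34.8%. The groups of each of these genes did not overlap, which the naming rule required.

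Genes with lower shares in the triple mutant changed by similar odds. RAN-1, a small GTPase of nuclear transport, had 0.660% and 0.949% in *dcl2 dcl4* against 27.5% and 15.1% in *hot3-2 dcl2 dcl4* (log2 odds ratio 4.83, SE 1.11), although 20.0% of its 28 nt stretches occur in another transcript. AT1G72020, annotated as TonB-dependent heme receptor A, had 0.971% and 1.03% against 21.3% and 19.6%. PRK, the phosphoribulokinase of carbon fixation, had 0.478% and 0.423% against 5.35% and 11.3%. The triple mutant libraries themselves differed widely in RAN-1 and PRK.

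In the remaining named genes the control libraries held few start codon P sites. CLPC1, a chaperone of chloroplast protein import and breakdown, had 2 in *dcl2 dcl4* and 22 in *hot3-2 dcl2 dcl4*, a ratio of shares of 27.1 with an exact counting interval of 6.65 to 237, although even in the mutant its share was 1.03% and 1.53%. PKT3, a thiolase of fatty acid breakdown in peroxisomes, had a ratio of 27.1 (6.67 to 238), EXL4, a lipase of the pollen coat, 32.3 (7.90 to 284), and PLAT1, a lipase and lipoxygenase domain protein, 23.7 (5.82 to 208). Counts of 2 or 3 control P sites also underlie AGP12, with 17.1 (5.48 to 86.5), and AT1G72020, with 20.5 (5.07 to 180). These intervals cover counting error only.

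**Figure D2:**
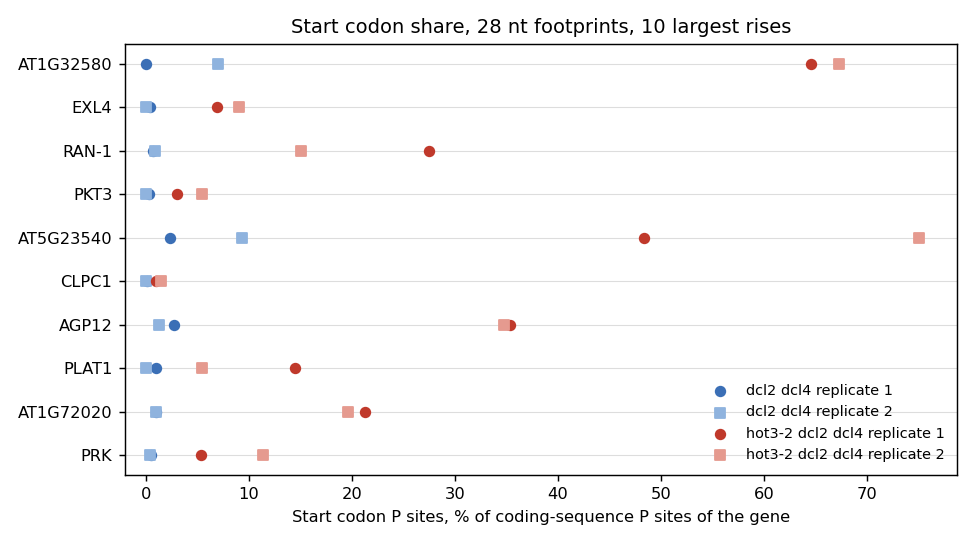
Start codon share (x axis, percentage of a gene's coding-sequence P sites of 28 nt that lie on the ATG) of the 10 genes with the largest rise, with 1 point per library and both libraries of each genotype drawn. The share spans 1.03% to 75.0% in *hot3-2 dcl2 dcl4* and 0% to 9.38% in *dcl2 dcl4*, and the groups do not overlap within a gene, which the rule for naming required.

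The changes with the smallest p were in genes with many P sites of 28 nt, named here after their values were seen. LHCB5, a light-harvesting protein of photosystem II, had 1.67% and 1.72% of its P sites on the ATG in *dcl2 dcl4* against 16.8% and 17.2% in *hot3-2 dcl2 dcl4* (log2 odds ratio 3.57, SE 0.25, quasi-binomial adjusted p = 2.22e-63). LP1, a lipid transfer protein, had 4.06% and 4.63% against 32.04% and 23.65%. LTP2 had 33.9% and 37.3% against 77.8% and 81.5%, and the footprints on the ATG of these 2 genes were not separable. GRF2, a general regulatory factor that binds phosphorylated proteins, had 26.8% and 25.8% against 72.9% and 73.6%. ER, the ERECTA receptor kinase that controls organ shape and stomata, had 11.3% and 8.63% against 55.4% and 51.7%. Some start codons were thus already heavily occupied in *dcl2 dcl4*, and others, such as that of LHCB5, were not.

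Some features of the start site that the test did not use were more frequent among the genes that passed. The third base before the ATG was a purine in 90.6% of the 170 genes and in 79.6% of the 3197 tested, and an A in 68.8% and 57.5%. The base after the ATG was G in 76.5% and 60.6%. The genes that passed had a median coding sequence of 766.5 nt, against 1209 nt in all genes tested. They were also read more deeply, with a median of 199 P sites of 28 nt per library against 85.5. Among the 1368 genes with a mean of at least 100 such P sites, 121 passed, and the purine shares were 91.7% and 81.8% and the G shares 76.0% and 63.4%. In *dcl2 dcl4* these 121 genes already had 2.08% of their P sites on the ATG, against 0.432% in the 1368. More start codon P sites make a change easier to detect. Whether the features go with the rise or with this higher share was not tested. These are descriptions without a test. In 3 of the 170 genes, LP1, LTP2 and AT3G55750, the 28 nt window occurs in another transcript, as it does in 28 of the 3197.

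Genes that passed at the ATG included both genes with more and genes with fewer P sites in the whole coding sequence. Of the 170 genes, 43 (25.29%) also had more coding-sequence P sites, against 10.45% of the 3197 tested, and 31 (18.24%) had fewer, against 15.67%. P sites on the ATG are themselves counted in the coding sequence. Among the gene lists described below, 9 of the 43 nuclear photosynthesis genes tested passed at the start codon and 10 of 62 proteins of the small ribosomal subunit, beside 5.32% of all genes tested. In the large subunit it was 7 of 100, close to that share. Pollen coat genes had 2 of 10, and cuticular wax and lipid transfer genes 2 of 10. Initiation factors and poly(A)-binding proteins had 0 of 24, and heat shock proteins and chaperones 0 of 9. Among all genes with a mean of at least 100 P sites of 28 nt, 121 of 1368 passed. The lists were not matched to other genes for depth. These are counts without a test.

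P sites upstream of the ATG were tested in the same way, as the share of the 5′ UTR among 5′ UTR and coding-sequence P sites, a test added after the data had been seen. It was higher in *hot3-2 dcl2 dcl4* in 29 of 3266 genes (0.888%) and lower in 0 (0.00%), and at an unadjusted p under 0.05 it was higher in 226 and lower in 3. LP1 had 1.66% and 2.17% of its P sites in the 5′ UTR in *dcl2 dcl4* against 12.2% and 9.97% in *hot3-2 dcl2 dcl4* (log2 odds ratio 2.67, quasi-binomial adjusted p = 7.33e-20). The 12 nt before the ATG are the same in LP1 and LTP2. Sharing of 5′ UTR sequence was not measured, so some of these footprints may belong to LTP2. GH9B7, a glycosyl hydrolase of the cell wall, had 29.4% and 32.4% against 63.0% and 62.7%. ABCE2, a homolog of the factor that recycles ribosomes in yeast and animals, had 2.42% and 4.08% against 21.6% and 18.7%, and SLD1, a sphingolipid desaturase, 0.996% and 0.896% against 5.55% and 6.99%. Of the 25 called genes that the start codon test also covered, 6 (24%) passed there, beside 5.32% of all genes tested.

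Coding-sequence P sites, counted over footprints of all lengths, changed in both directions. Of 13303 nuclear genes tested with limma voom, 572 (4.30%) were higher and 615 (4.62%) lower in *hot3-2 dcl2 dcl4* at an adjusted p under 0.05, and with library totals in place of trimmed-mean scaling the split was 704 and 496. The median log2 fold change of all genes was 0.02, and 0.07 with library totals. Levels below are CPM after this scaling. The shares of all genes called, 4.30% higher and 4.62% lower, are the background for each count of list members below. Among the 3197 more deeply read genes of the start codon test, 10.45% were higher and 15.67% lower. In whole inflorescences, fewer cells of a type and less RNA per cell cannot be told apart.

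Among the 12 largest rises with a mean of at least 100 P sites and no overlap, several enzymes of metabolism stood beside members of ribosomal protein families. ESM1, a modifier of glucosinolate breakdown, had 173 and 168 CPM in *dcl2 dcl4* against 542 and 504 in *hot3-2 dcl2 dcl4* (log2 fold change 1.61, SE 0.12, limma adjusted p = 5.31e-19). AOX1A, the alternative oxidase of the mitochondrial respiratory chain, had 51.6 and 50.2 against 130 and 153 (1.47, SE 0.19). NIR1, the nitrite reductase of nitrate assimilation, had 50.6 and 48.3 against 150 and 110 (1.37, SE 0.20), while in *hot3-2* against WT its log2 fold change was -0.62. The groups were well apart in all 3, and each change was of similar size without the first 15 and the last 5 codons.

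Genes annotated to ribosomal protein families among the rises were AT4G12600, of the L7Ae/L30e/S12e/Gadd45 family (78.9 and 94.2 against 240 and 200, log2 fold change 1.34), AT2G45710, of a zinc-binding family (74.9 and 56.8 against 179 and 151, 1.33), and AT3G55750, of the L35Ae family (232 and 263 against 710 and 683, 1.49). A family name does not show that a protein is part of the ribosome. For AT3G55750, 58.9% of its 28 nt stretches occur elsewhere and its level is uncertain. Its change was 0.95 without the ends of the coding sequence. The first 15 codons held 57.1% of its P sites in *dcl2 dcl4* and 71.5% in *hot3-2 dcl2 dcl4*. AT2G07751 (1.44) shares all of its sequence with other transcripts or the mitochondrial and chloroplast genomes and cannot be assigned to the nuclear gene. AT1G70780, an uncharacterized protein, had 42.7 and 53.5 against 136 and 194 (1.77, and 1.45 without the ends of the coding sequence).

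Several of the largest rises were local. GLTP1, which moves glycolipids between membranes, had 75.4 and 90.4 CPM in *dcl2 dcl4* against 305 and 373 in *hot3-2 dcl2 dcl4*, a log2 fold change of 2.03. However, 95.9% and 98.9% of its P sites lay in the first 15 codons, and without these the change was -0.025. AT5G47700, an acidic protein of the ribosomal stalk, changed by 1.75 overall and 0.23 without the ends, and AT5G05110, of the cystatin family of protease inhibitors, by 1.73 and 0.028. In these genes P sites near the start codon, not along the coding sequence, made up the rise. The largest rise by this rule, in AT2G35750, an uncharacterized protein (33.7 and 49.2 against 319 and 299, 2.91), rested on footprints other than 28 nt. Of its P sites, 80.2% in *dcl2 dcl4* and 63.7% in *hot3-2 dcl2 dcl4* were from footprints under 26 nt, and almost none from 28 nt.

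**Figure D3:**
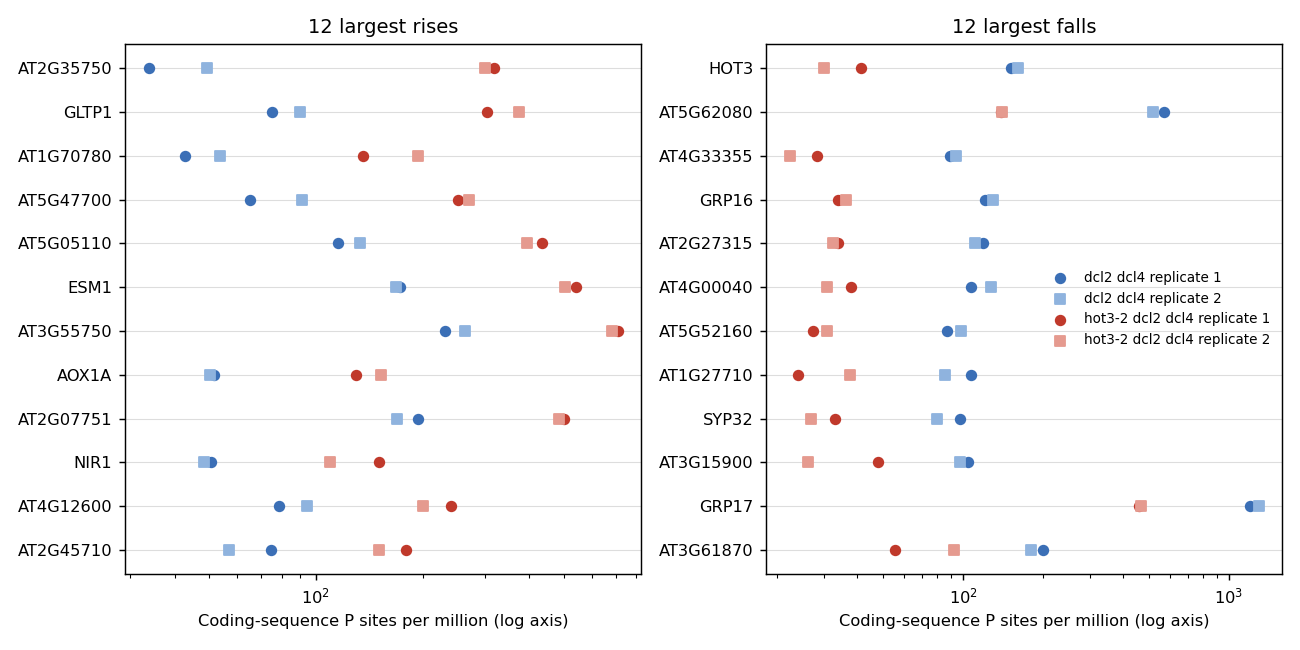
Coding-sequence P sites in CPM (x axis, log scale) of the 12 largest rises (left) and the 12 largest falls (right) in *hot3-2 dcl2 dcl4* against *dcl2 dcl4*, with 1 point per library and 2 libraries per genotype. The groups do not overlap in any gene, which the rule for naming required. Among the falls, GRP17 lies at 1202 and 1296 in *dcl2 dcl4* against 457 and 467. HOT3, the largest fall, lies at 152 and 160 against 41.3 and 29.9.

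The 12 largest falls, beside HOT3, included 3 members of the lipid-transfer protein family and 2 oleosins of the pollen coat. AT5G62080, a member of the lipid-transfer protein family, had 568 and 519 CPM in *dcl2 dcl4* against 139 and 140 in *hot3-2 dcl2 dcl4* (log2 fold change -1.95, SE 0.13, limma adjusted p = 3.63e-20). AT4G33355 (-1.86) and AT5G52160 (-1.66) belong to the same family. GRP16 and GRP17 are glycine-rich oleosins of the pollen coat. GRP16 had 121 and 130 against 33.9 and 36.1 (-1.83, SE 0.25), and GRP17, which pollen needs to take up water on the stigma, 1202 and 1296 against 457 and 467 (-1.43, SE 0.097). AT4G00040, of the chalcone and stilbene synthase family, had 107 and 127 against 38.0 and 30.7 (-1.77), and AT2G27315, annotated as similar to egg cell-secreted proteins, 119 and 111 against 33.9 and 32.2 (-1.78). Each of these fell also in 28 nt footprints alone.

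The other falls were less even. AT3G61870, of unknown function, had 201 and 180 against 55.3 and 92.1 (-1.39). AT1G27710, a glycine-rich protein, had -1.65 and, in 28 nt footprints, -1.38, which did not pass the test. SYP32, a syntaxin of the Golgi, had -1.55 but -0.38 in 28 nt footprints, and 78.1% of its P sites in *dcl2 dcl4* came from footprints under 26 nt. In AT3G15900, annotated as a homoserine O-acetyltransferase, a single footprint of 22 nt held 64.2% of the P sites in *dcl2 dcl4* and 19.6% in *hot3-2 dcl2 dcl4*. The log2 fold change was -1.51 with all footprints and -0.18 with 28 nt footprints.

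Genes that build ribosomes rose together. Of 39 tested genes of a list of 44 for ribosome biogenesis and the RNA exosome, 20 rose and 0 fell, against 4.30% and 4.62% of all genes, and the median log2 fold change was 0.60. EDA25, of the CCAAT-binding factor family, had 126 and 129 CPM in *dcl2 dcl4* against 257 and 231 in *hot3-2 dcl2 dcl4* (0.94). FIB2, the fibrillarin that methylates ribosomal RNA, had 236 and 221 against 354 and 388 (0.70), and NUC-L1, a nucleolin, 1524 and 1382 against 1974 and 1950 (0.44). AT5G27120, annotated as NOP56-like, had 138 and 172 against 229 and 310 (0.79). The 43 measured members together had 4696 and 4748 CPM in *dcl2 dcl4* against 6954 and 6907 in *hot3-2 dcl2 dcl4*. When 1 of the 4 libraries compared was left out, 10 to 15 of the genes passed, and in 28 nt footprints 11 of 37 did.

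Ribosomal proteins were listed by product name or symbol. In the large subunit list 67 of 163 tested genes rose and 10 fell, with a median of 0.43. In the small subunit list 28 of 96 rose and 12 fell, with a median of 0.30. Of all genes tested, 4.30% rose and 4.62% fell. AT5G20290, an S8e protein, had 951 and 1002 CPM against 1823 and 2066 (log2 fold change 0.99), and AT5G15200, an S4 protein, 1365 and 1469 against 2269 and 2422 (0.73). In the large subunit AT5G02870, of the L4/L1 family, had 972 and 941 against 1656 and 1706 (0.81), and AT3G24830, of the L13 family, 376 and 378 against 763 and 721 (0.98). With the ends of the coding sequence left out, 61 of 154 large subunit genes rose and 10 fell, and 23 of 94 small subunit genes rose and 9 fell. Of the genes that rose with the ends included, 59 of the 67 in the large subunit and 20 of the 28 in the small subunit also rose without them. Without 1 of the 4 libraries compared, 45 to 59 large subunit genes rose and 8 to 10 fell, and 15 to 24 small subunit genes rose and 4 to 9 fell. In 28 nt footprints alone 15 of 88 small subunit genes rose and 6 fell.

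The members of the ribosomal lists that fell were looked at by name after their values were seen. Those that rose or did not pass were not looked at in this way, so the counts and medians above are those of the lists as annotated. All 10 in the large subunit list, among them AT5G47190 (-1.20), RPL12-A (-0.86), PRPL35 (-0.80), RPL4 (-0.79) and emb1473 (-0.76), encode proteins of chloroplast ribosomes, which the rule by product name had not removed. In the small subunit list RPS9, EMB3137 (-0.92) and RPS1 (-0.70) do so as well. The others are cytosolic, such as RPS15 (-0.59), AT2G31610 of the S3 family (-0.50) and AT5G58420 of the S4 family (-0.42). Another 4, of the S5 family, share 58.2% to 100% of their sequence with other genes and are uncertain.

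**Figure D4:**
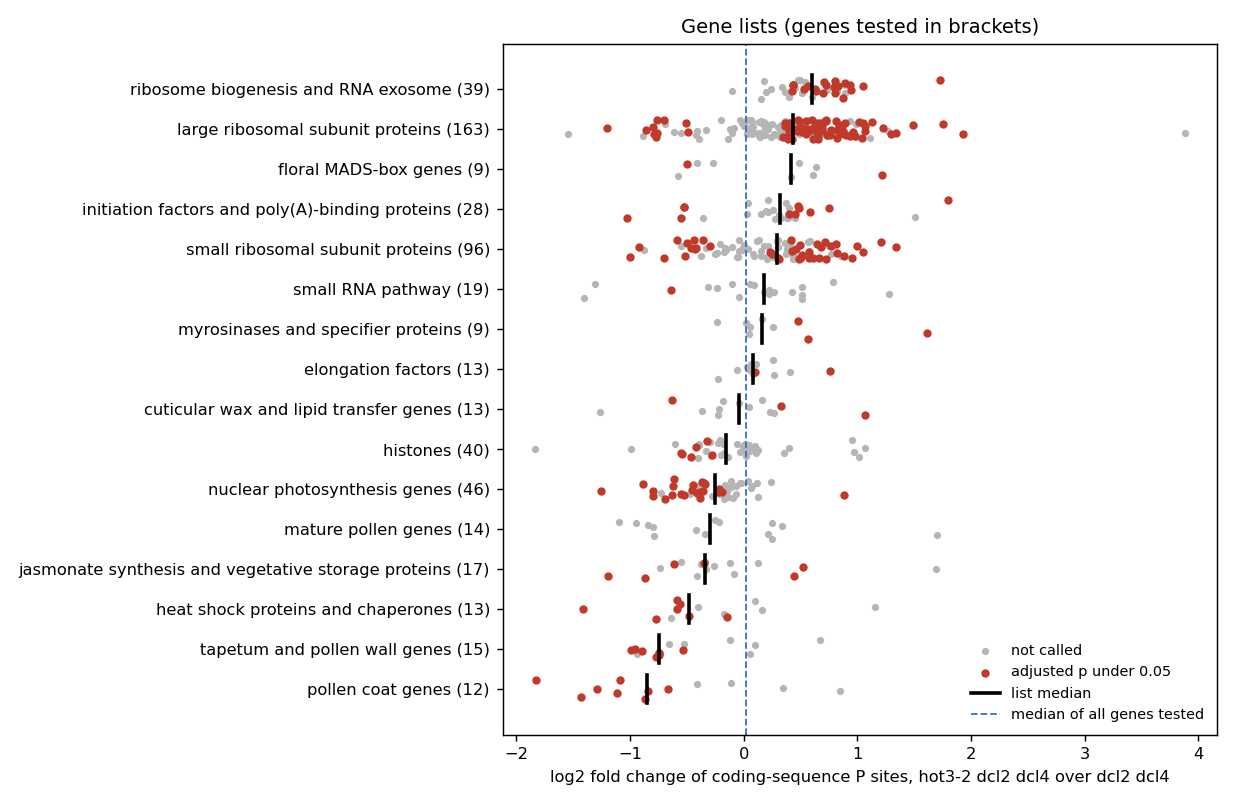
Log2 fold change of coding-sequence P sites in *hot3-2 dcl2 dcl4* against *dcl2 dcl4* (x axis) for every tested member of each gene list (rows, number tested in brackets), with members past an adjusted p of 0.05 in red and the others in grey. The dashed line marks the median of all genes tested at 0.02. Members called in ribosome biogenesis lie to the right of the line, and those in the tapetum, pollen coat and chaperone lists to the left of it.

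Translation factors moved less uniformly. Of 28 tested initiation factors and poly(A)-binding proteins 7 rose and 4 fell, beside 4.30% and 4.62% of all genes. Their median was 0.32. Without 1 of the 4 libraries compared 3 to 5 rose and 0 to 3 fell, and in 28 nt footprints 3 of 26 rose and 0 fell. TRIP-1, a subunit of eIF3, had 20.8 and 19.4 CPM in *dcl2 dcl4* against 63.6 and 77.5 in *hot3-2 dcl2 dcl4* (1.80), which without the ends of the coding sequence was 1.52 and no longer passed. AT4G20980, annotated as a eukaryotic translation initiation factor, rose by 0.75 and EIF3C by 0.48, whereas EIF4A-2, an RNA helicase, had 332 and 312 against 237 and 210 (-0.53), a fall that did not pass in 28 nt footprints. Of 13 elongation factors 2 rose and 0 fell, beside the same shares of all genes. LOS1, which encodes eEF2, had 6742 and 6904 against 7470 and 7160 (0.10), which passed in 1 of 4 fits without 1 compared library and not in 28 nt footprints. FBR12, of the eIF5A family, had 264 and 278 against 448 and 471 (0.76), but 0.05 without the ends, as 69.3% of its P sites in *hot3-2 dcl2 dcl4* lay in the first 15 codons against 47.9% in *dcl2 dcl4*.

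Genes of the anther were lower. Of 12 tested pollen coat genes 8 fell and 0 rose, with a median of -0.85, and the same counts were found when any 1 of the 4 libraries was left out. GRP19 had 316 and 297 CPM in *dcl2 dcl4* against 149 and 134 in *hot3-2 dcl2 dcl4* (-1.12), and EXL4 505 and 402 against 254 and 240 (-0.87). Of 15 tested tapetum and pollen wall genes 8 fell and 0 rose, with a median of -0.74, and 2 to 5 fell when a library was left out and 4 of 11 in 28 nt footprints. AMS, a transcription factor of the tapetum, the cell layer that feeds developing pollen, had 183 and 162 against 90.8 and 82.1 (-0.99). LAP5 and LAP6, polyketide synthases for the polymer of the pollen wall, had 277 and 283 against 151 and 150 (-0.89) and 199 and 185 against 123 and 102 (-0.77). ACOS5, the acyl-CoA synthetase of the same pathway, had 159 and 183 against 122 and 85.2 (-0.75).

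Summed over the list, tapetum and pollen wall genes had 1345 and 1387 CPM in *dcl2 dcl4* against 857 and 798 in *hot3-2 dcl2 dcl4*, and pollen coat genes 3179 and 3207 against 1668 and 1625. The 18 mature pollen genes together had 746 and 754 against 615 and 700. Of the 14 of these tested, 0 rose and 0 fell by limma voom, with a median of -0.30. Of 9 tested floral MADS-box genes PI, which specifies petals and stamens, fell, with 375 and 379 against 250 and 282 (-0.50), and AGL6 rose, with 9.43 and 11.4 against 29.7 and 20.0 (1.21). These were 1 fall and 1 rise, beside 4.62% and 4.30% of all genes. The fall of PI did not pass in 28 nt footprints. The rise of AGL6 passed in 1 of 4 fits without 1 compared library, and neither in 28 nt footprints (0.57) nor without the ends of the coding sequence. What part the amount of tapetum had in the falls of other genes was not tested.

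Many photosynthesis genes of the nucleus were lower. Of 46 tested genes 22 fell and 1 rose, with a median of -0.25. PSBR, a subunit of photosystem II, had 1982 and 1935 CPM against 1203 and 1058 (-0.80). LHB1B2, a light-harvesting protein, had 1697 and 1660 against 1053 and 1022 (-0.69), with 42.9% of its sequence shared, and LHCA4, of photosystem I, 2071 and 2073 against 1347 and 1338 (-0.63). The single rise, in PSAL (1497 and 1513 against 2824 and 2734, 0.88), was carried by a short footprint, since 1 footprint of 22 nt made up 33.4% of its P sites in *hot3-2 dcl2 dcl4*, and in 28 nt footprints the change was -0.21. Chloroplast transcripts held 8.31% and 7.91% of all footprints in *dcl2 dcl4* against 7.42% and 7.77% in *hot3-2 dcl2 dcl4*. Without the reading frame in ribosomal DNA the shares were 9.69% and 9.24% against 9.97% and 10.11%, so the direction depends on what the share is taken of.

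Several chaperone genes fell, and few histone genes did. Of 13 tested heat shock proteins and chaperones 7 fell and 0 rose, with a median of -0.48. In 28 nt footprints 4 of 12 fell. Without genes that share 20% or more of their sequence, an alternative chosen after seeing the data, 3 of 9 fell and the median was -0.18. BIP1, the HSP70 of the endoplasmic reticulum, had 1552 and 1588 CPM in *dcl2 dcl4* against 913 and 923 in *hot3-2 dcl2 dcl4* (-0.77), with much of its sequence shared with BIP2. HSP81-3, an HSP90, had 1365 and 1407 against 844 and 1003 (-0.59), with 47.9% shared, and AT3G09440, an HSP70 with little shared sequence, 873 and 847 against 562 and 600 (-0.56). Of 40 tested histone genes 6 fell and 0 rose, with a median of -0.16, against 4.62% of all genes that were lower. Without 1 library 1 to 4 fell, in 28 nt footprints 1 of 33, and without genes of shared sequence the median was -0.04. HTB4, a histone H2B, had 445 and 491 against 327 and 349 (-0.47), which did not pass in 28 nt footprints.

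In the remaining lists few members passed the test. Of all genes tested, 4.30% were higher and 4.62% lower. Of 9 myrosinases and specifier proteins, which break down glucosinolates, 3 rose and 0 fell. They were ESM1, TGG2 (857 and 840 against 1259 and 1254, 0.57) and TGG1 (507 and 497 against 681 and 715, 0.48). Of 17 tested genes of jasmonate synthesis and vegetative storage, 2 rose and 4 fell. VSP1 had 4628 and 4589 against 3464 and 3771 (-0.35) and its relative VSP2 473 and 485 against 673 and 634 (0.45). JMT, which methylates jasmonate, had 71.0 and 62.0 against 28.1 and 29.2 (-1.20). LOX2, a lipoxygenase, had 0.52 but 0.20 without the ends of the coding sequence, which did not pass.

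Of 13 cuticular wax and lipid transfer genes 2 rose and 1 fell, beside 4.30% and 4.62% of all genes. Their median was -0.04, and 0.02 with library totals. PEL3, an acyltransferase of the cuticle, had 1255 and 1243 against 810 and 799 (-0.63), and KCS1, a ketoacyl-CoA synthase, 384 and 427 against 519 and 501 (0.33). The rise of KCS1 passed in 0 of 4 fits without 1 compared library, and neither without the ends (0.32) nor in 28 nt footprints. The rise of LTP2 (473 and 436 against 770 and 1159, 1.07) was again local, with 86.5% of its P sites in *hot3-2 dcl2 dcl4* in the first 15 codons, and was -0.35 without the ends. Its 28 nt footprints on the ATG numbered 185 in *dcl2 dcl4* and 571 in *hot3-2 dcl2 dcl4*. They cannot be told from those of LP1, which had 187 and 569. Whether the rise belongs to LTP2 or to LP1 is therefore uncertain. Of 19 tested genes of the small RNA pathway 0 rose and 1 fell, AGO5, an Argonaute (78.9 and 99.9 against 61.9 and 52.2, -0.64, limma adjusted p = 0.0465), beside 4.62% of all genes that were lower. It passed in 1 of 4 fits without 1 compared library, and not with library totals, in 28 nt footprints or without the ends.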

How the data were processed

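Ribo-seq was performed on inflorescences, with 2 libraries each of *dcl2 dcl4* and *hot3-2 dcl2 dcl4* compared here and 2 each of WT and *hot3-2* in the fit. The authors trimmed reads with cutadapt and aligned them with STAR to TAIR10, per the labels and the methods of the study. The deposited files hold, for 22567 transcripts, 1 footprint per line, with transcript positions in nucleotides (unit: other) that were not normalised, so each count here is a number of lines. Whether the deposited P sites used the fixed offsets of the methods is uncertain. Those of 25 nt footprints were 9 nt from the 5′ end in 3 of the 4 libraries and 12 nt in replicate 2 of *hot3-2 dcl2 dcl4*. The handling of duplicates is not given in the sources used here. For reads with several matches, the methods state STAR settings and a rule of unique matches for RNA-seq, but none for Ribo-seq. RNA-seq was not analysed here.

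Coding-sequence P sites lie from the first base of the start codon to the last base of the stop codon, and positions came from 28 nt footprints. Products, coordinates and 9279 symbols for 22384 nuclear transcripts came from TAIR10.1 (RefSeq). Counts were fitted with limma 3.58.1 voom (R 4.3.3) over 8 libraries with 1 coefficient per genotype, a trimmed mean of M values for scaling (30% by fold change and 5% by abundance), genes kept at 10 counts in at least 2 libraries and 15 in all, and p-values adjusted by Benjamini-Hochberg over all genes. A dedicated count model was not used because the deposited columns are positions. Shares per gene were tested with a quasi-binomial likelihood ratio F test, dispersions moderated by squeezeVar of limma. Its prior was taken from genes with a mean of at least 2 start codon P sites, a choice made after the data had been seen, and log2 odds ratios have 0.5 added to each count. Both tests were tested on simulated data, in which the start codon test, and the coding-sequence test at the smaller change, missed most of the changes put in. The chi-square of replicate counts was 2.15 times its degrees of freedom in *dcl2 dcl4* and 2.48 times in *hot3-2 dcl2 dcl4*, above counting error. Shared sequence is the percentage of the 28 nt stretches of a coding sequence found in another transcript or an organelle genome.

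Named genes were the 12 largest rises and 12 largest falls among genes with an adjusted p under 0.05, a mean of at least 100 P sites and no overlap, the 10 largest rises at the start codon with at least 20 start codon P sites, and up to 4 called members of each list with the smallest p. A few others were chosen after their values were seen, as stated beside them or because their change was local. The comparison, lists and tests were chosen with earlier results of these data known. Python 3.11.15, pandas 2.3.3, scipy 1.17.1 and matplotlib 3.10.9 were used for tallies, intervals and plots.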

Additional observations from a re-analysis of the deposited data

Results flagged for a closer look

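Of the 71 genes picked by the naming rules for coding-sequence P sites, 12 had a *hot3-2* effect that differed with and without *dcl2 dcl4*. The call was a limma interaction term at an adjusted p under 0.05, which 146 of all 13303 genes also passed. The 71 genes were picked by the contrast of *hot3-2 dcl2 dcl4* with *dcl2 dcl4*. The interaction term uses that contrast again, so the share among them may be raised by the choice and adds no support. The differences in log2 fold change, with *dcl2 dcl4* minus without, were 1.61 for AT2G35750 (adjusted p = 1.48e-06), -0.70 for ESM1 (adjusted p = 0.00727), 1.99 for NIR1 (adjusted p = 7.50e-07), -1.60 for AT2G27315 (adjusted p = 0.00603), -2.11 for SYP32 (adjusted p = 8.26e-06) and -1.70 for AT3G15900 (adjusted p = 4.07e-04). They were 0.43 for PSAL, 0.46 for AT3G24830, 0.44 for LHCA4, -0.52 for VSP1, -0.31 for NUC-L1 and -0.38 for AT4G40040, a histone gene. NIR1 changed by 1.37 in *hot3-2 dcl2 dcl4* against *dcl2 dcl4* and by -0.62 in *hot3-2* against WT, and SYP32 by -1.55 and 0.56. AT2G27315 changed by -1.78 and -0.18. In 28 nt footprints alone the change in *hot3-2 dcl2 dcl4* against *dcl2 dcl4* was -0.38 for SYP32, -0.18 for AT3G15900 and -0.21 for PSAL, and AT2G35750 had almost none of these footprints. With footprints of all lengths, AT2G35750, ESM1, PSAL, AT3G24830, LHCA4 and NUC-L1 had the same direction in both comparisons and passed in both.

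The reading frame within ribosomal DNA, outside the tests, took 24.4% of the footprints of *hot3-2 dcl2 dcl4* on average, above 14.3% and 14.4% in *dcl2 dcl4*. Mitochondria-encoded transcripts took 1.09% on average, above 0.836% and 0.793%.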

How the results depend on the processing

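The 1187 genes with changed coding-sequence P sites were 508 in 28 nt footprints alone and 199 at an adjusted p under 0.01 with at least a 2-fold change. Leaving out 1 of the 8 libraries gave 657 to 1262 genes, with 720 or 748 without a *dcl2 dcl4* library (replicate 1 or 2) and 722 or 657 without a *hot3-2 dcl2 dcl4* library (replicate 1 or 2), where the lone library is assumed to vary like the other groups. Other scaling, filters, tests and sets of libraries gave 896 to 1347. Without genes that share 20% or more of their sequence, an alternative chosen after seeing the data, it was 1116. The log2 fold change of HOT3 was -2.36 to -1.91 when a library was left out. With the replicate number as a replicate block 1247 genes changed at the coding sequence and 160 at the start codon, but same-numbered libraries of the compared genotypes did not deviate together (correlation 0.0313 over 5792 genes), so the numbers do not pair them.

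The 170 genes at the start codon were 319 with fixed offsets for 26 to 29 nt footprints and 503 with all lengths and the deposited P sites (501 higher, 2 lower). They were 255 of 730 genes with a mean of at least 1 start codon P site, and 64 to 172 when a library was left out, in the same order 72 or 64 and 109 or 88. The cause of these differences was not tested, other than the fewer genes or libraries that some settings hold. The ratio of start codon shares was 4.83 with fixed offsets, 5.46 ± 1.55 (SD) with all lengths and 3.51 for the mean of per-gene shares. It was 4.96 to 5.06 when a library was left out. With all lengths the 2 triple mutant libraries had shares of 2.28% and 3.74%. Deposited offsets of 25 and 26 nt footprints were 9 and 10 nt in replicate 1 of *hot3-2 dcl2 dcl4* and 12 nt in replicate 2. The 503 genes rest on the same P sites. With all lengths the ratios were 2.08 for the 5′ UTR, 1.19 for codons 2 to 10, 0.961 from codon 51, 1.35 for the last 2 codons and 1.11 for the 3′ UTR. Leaving out a library gave 1.82 to 1.92, 1.15 to 1.17, 0.966 to 0.972, 1.12 to 1.18 and 0.914 to 0.979 for these, and 0.998 to 1.04 for codons 11 to 50. Of 583 alternative values of 34 named genes, 569 kept direction and call, 13 no longer passed and 1 changed sign, GLTP1 with -0.025 without the first 15 and the last 5 codons.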
